A study of Xenopus laevis with 6 samples.

Results

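Keratin genes were followed in whole gastrulae of Xenopus laevis, the African clawed frog. Members were the gene rows whose name begins with krt, with or without a number, leaving out names that begin krtap or krtcap, of which the count tables held 0. This gave 35 of 45099 gene rows. At least 1 read was counted in 27 of them, 16 passed the filter for low counts and could be tested, and 8 had no read in any embryo. There were 6 libraries, each from 1 whole embryo at stage 11.5, during gastrulation. The dkk embryos (n = 3) had been injected animally, into both blastomeres at the 2-cell stage, with 100 pg of mRNA for dkk, a secreted Wnt antagonist, and the control embryos (n = 3) were uninjected siblings. A dkk embryo and its control shared their parents, and no parents were shared between the 3 sibling pairs. Controls carried no mock injection in the labels, so injection as such and dkk cannot be told apart.

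Keratins are the intermediate filament proteins of epithelia. A type I (acidic) keratin pairs with a type II (basic) keratin, and the heteropolymers are anchored to desmosomes, giving an epithelial sheet its resistance to strain. Krt8 and Krt18 form the classic pair of simple epithelia and are also present in the Xenopus egg and early embryo. Other keratins, among them the krt12 group once called epidermal keratin or XK81 and the krt gene once called XK70, switch on in the prospective epidermis and have long served as markers of non-neural ectoderm. In whole embryos fewer epidermal cells and less keratin RNA per cell cannot be told apart.

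Reads assigned to genes numbered 17460820 to 19880568 per embryo. The treatment label names dkk without a gene number or copy. dkk1.S was read in every dkk embryo at high level, with 9526, 8491 and 15993 reads in dkk embryos 1 to 3 against 204, 366 and 274 in their control siblings. The other copy, dkk1.L, was lower in each dkk embryo, with 45, 39 and 200 reads against 223, 327 and 346. Markers of ectoderm, neural plate, mesoderm, endoderm and organizer were all read. The ectodermal marker rows (6 rows) summed to 2090, 2619 and 2335 CPM (reads scaled by library size) in dkk embryos 1 to 3 and to 2415, 2746 and 2552 CPM in controls 1 to 3. Mesodermal markers summed to 715 to 726 CPM in dkk embryos and 1438 to 1465 CPM in controls, with 6 of 14 rows past the test, all lower in dkk embryos. Organizer markers summed to 643, 741 and 1241 CPM in dkk embryos 1 to 3 and to 822, 886 and 826 CPM in controls 1 to 3, with 2 of 12 rows, hhex.L and lhx1.S, past the test as higher in dkk embryos. Both calls were lost without pair 2, at adjusted p of 0.0787 for hhex.L and 0.124 for lhx1.S (edgeR, BH). They were also lost without the mating pair as a block (0.404 and 0.902), and lhx1.S without pair 1 (0.0545). Of the 12 organizer rows, 8, 7 and 8 were higher in the dkk embryo in pairs 1 to 3. Both copies of cer1 were lower in the dkk embryo of each pair. Mean CPM of cer1.S was 158 in dkk embryos and 299 in controls, and that of cer1.L 29.7 in dkk embryos and 85.6 in controls. Neither copy passed, at adjusted p of 0.36 for cer1.S and 0.656 for cer1.L (edgeR, BH). Neural markers summed to 1083, 912 and 1277 CPM in dkk embryos and to 1297, 1270 and 1265 CPM in controls, and endodermal markers to 927, 1269 and 1566 CPM in dkk embryos and to 1307, 1394 and 934 CPM in controls, with 0 of 11 and 0 of 16 rows past the test (edgeR, BH). The part of these differences in the keratin values was not tested.

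Some row names are older than current ones. Of the 35 rows, 17 matched a RefSeq symbol of the assembly Xenopus_laevis_v10.1, and 18 were matched to none. There krt.L and krt.S stand as krt70.L and krt70.S, krt12.S as krt12.5.S, krt16.L and krt16.S as krt12.2.L and krt12.2.S, krt5.7.L as krt7.L, krt18.L and krt18.S as krt18.1.L and krt18.1.S, and krt2l.L as ouro1.L. In that table krt18.1.S lies directly beside krt8.1.S, krt12.5.S between krt12.4.S and krt12.6.S, and krt70.L near krt17.L. The older name krt5.1 belongs to srsf5a.L, a splicing factor gene, and to no keratin. Whether the 3 krt5.1-like rows encode keratins was not tested, and the main counts over keratins are therefore also given without them.

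Together the 35 rows took 0.791%, 1.17% and 0.554% of the reads in genes in dkk embryos 1 to 3, against 0.671%, 0.701% and 0.521% in controls 1 to 3 (95% Wilson half-widths at most 0.00479 percentage points, counting error only). Summed keratin reads were 8038, 12650 and 4996 CPM in dkk embryos 1 to 3 and 6835, 7429 and 4942 CPM in controls 1 to 3. The dkk embryo of pair 2 was far above every other embryo, and both embryos of mating 3 were the lowest. Within the pairs the sum was 1.18, 1.70 and 1.01 times that of the control. The means were 8561 ± 3853 CPM in dkk embryos and 6402 ± 1299 CPM in controls (SD, n = 3 each). They differed by less than the SD of the dkk embryos, which also holds the differences between matings. The 10 rows with the most reads held 98.7% to 99.4% of the keratin reads.

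**Figure D1:**
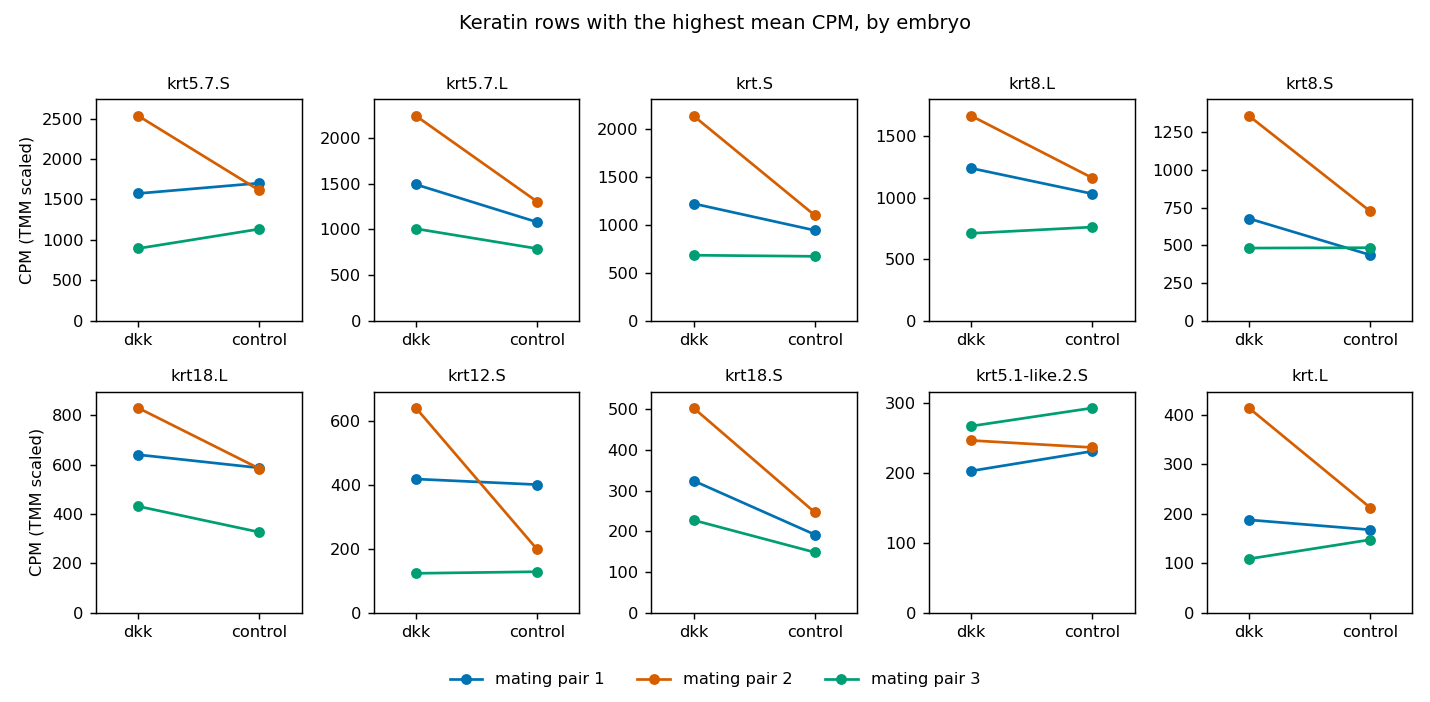
CPM (reads scaled to TMM library sizes, linear axes starting at 0) of the 10 keratin rows with the highest mean, in each dkk embryo (left) and its control sibling (right), with a line joining the embryos of a mating pair. In 9 of the 10 rows the dkk embryo of pair 2 is the highest of 6; the exception is krt5.1-like.2.S.

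Krt18, the type I partner of Krt8, gave the only keratin call between dkk embryos and controls. krt18.S was read at 324, 503 and 228 CPM in dkk embryos 1 to 3 and at 192, 247 and 149 CPM in controls 1 to 3. Each dkk embryo was above its sibling, but dkk embryo 3 lay below control 2, so the groups overlapped. The row rose 1.74-fold (log2 fold change 0.80 ± 0.11, SE; edgeR quasi-likelihood F test, adjusted p = 0.0239 by the Benjamini-Hochberg method, BH). The call was lost without mating pair 2 (log2 fold change 0.68, adjusted p = 0.160), without the mating pair as a block (0.84, adjusted p = 0.9999) and with L and S copies summed (0.48, adjusted p = 0.128). The difference thus kept its direction, and its adjusted p ran from 1.72e-05 to 0.9999 over 11 alternatives (edgeR, DESeq2 and limma-voom). Its homeolog, the copy on the other subgenome, krt18.L, had 640, 829 and 431 CPM in dkk embryos 1 to 3 against 587, 584 and 326 CPM in controls 1 to 3. It too was higher in 3 of 3 pairs, with a log2 fold change of 0.34 ± 0.10 that did not pass (BH-adjusted p = 0.333 by edgeR).

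Krt8, the type II partner, did not pass in either copy. krt8.L had 1239, 1664 and 710 CPM in dkk embryos 1 to 3 and 1031, 1160 and 761 CPM in controls 1 to 3. The dkk embryo was higher in pairs 1 and 2 and lower in pair 3 (log2 fold change 0.23 ± 0.12, SE; BH-adjusted p = 0.733 by edgeR). krt8.S showed the same order, at 678, 1359 and 482 CPM in dkk embryos against 437, 727 and 484 CPM in controls, with log2 ratios of 0.63, 0.90 and -0.01 in pairs 1 to 3. Its log2 fold change of 0.51 ± 0.17 had an adjusted p of 0.503 over all pairs and of 0.00772 without pair 3 (edgeR, BH).

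Another type II gene with many reads was krt5.7, whose L copy is now named krt7. krt5.7.L was read at 1491, 2242 and 1006 CPM in dkk embryos 1 to 3 and at 1079, 1304 and 789 CPM in controls 1 to 3. All 3 dkk embryos were above their siblings, by 0.47, 0.78 and 0.35 on the log2 scale in pairs 1 to 3. The fitted difference was 0.53 ± 0.10 (SE), with an adjusted p of 0.0938 that missed the threshold (edgeR, BH). It passed with no filter (0.00560), with DESeq2 (0.0205) and without pair 3 (0.0184), and ranged up to 0.9999 over 11 alternatives. The S copy had no such order. krt5.7.S had 1573, 2533 and 893 CPM in dkk embryos 1 to 3 against 1701, 1611 and 1133 CPM in controls 1 to 3, and was higher in the dkk embryo only in pair 2. Its log2 fold change was 0.06 ± 0.20 and became -0.23 without pair 2.

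The embryonic epidermal keratins krt (XK70) and krt12 gave widely different ratios between pairs. krt.S had 1222, 2139 and 683 CPM in dkk embryos 1 to 3 and 944, 1101 and 672 CPM in controls 1 to 3. The difference was wide in pair 2 and almost absent in pair 3, at a log2 fold change of 0.45 ± 0.17 (SE; BH-adjusted p = 0.604 by edgeR). For krt.L the values were 187, 413 and 109 CPM in dkk embryos 1 to 3 and 167, 212 and 147 CPM in controls 1 to 3, a log2 fold change of 0.23 ± 0.27 that became -0.14 without pair 2. krt12.S stood out in the dkk embryo of pair 2, with 418, 640 and 123 CPM in dkk embryos 1 to 3 against 401, 198 and 128 CPM in controls 1 to 3. Its log2 ratio was 1.69 in pair 2, but 0.06 in pair 1 and -0.06 in pair 3. krt12.L, read much less, repeated this, with 246, 345 and 111 reads in dkk embryos and 176, 90 and 106 reads in controls, and log2 ratios of 0.36, 1.95 and -0.09 in pairs 1 to 3. Neither copy passed, with adjusted p-values of 0.870 for krt12.S and 0.754 for krt12.L (edgeR, BH).

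The krt5.1-like rows varied less between embryos. krt5.1-like.2.S had 203, 247 and 267 CPM in dkk embryos 1 to 3 against 231, 237 and 293 CPM in controls 1 to 3. Its highest embryo was control 3, and both embryos of mating 3 were above all others. krt5.1-like.2.L lay between 42.9 and 54.0 CPM in dkk embryos and between 40.8 and 46.6 CPM in controls, with its highest value in the dkk embryo of pair 2. Both rows had their largest dkk-to-control ratio in pair 2, at log2 values of 0.06 for the S copy and 0.40 for the L copy. Over controls their coefficients of variation were 13.5% and 7.73%, against 18.9% to 58.3% for the other 9 of the 10 rows with most reads.

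Few reads fell on the remaining rows. krt8.2.S, a second Krt8-type gene that lies beside a krt18.3 gene in the RefSeq table, had 38, 36 and 228 reads in dkk embryos 1 to 3 and 43, 29 and 181 in controls 1 to 3. Both embryos of mating 3 were therefore far above the other 4. Its homeolog krt8.2.L had 11, 22 and 2 reads in dkk embryos against 12, 7 and 5 in controls. krt16.S had 115 reads and krt80.S 90 over the 6 embryos. Of the 19 rows under the filter, 11 had reads, at most 62 over all embryos, including krt222-like.S with 62, krt16.L with 44, krt80.L with 34, krt17.L with 20 and krt2l.L with 15. Among them krt17.S had 1, 6 and 1 reads in dkk embryos 1 to 3 and 0 in each control, counts too low to test. The 8 rows with no read were krt15-like.L, krt24-like.1.L, krt24-like.1.S, krt5.1-like.1.L, krt5.3.L, krt5.6.L, krt5.6.S and krt6.L. A count of 0 leaves room for up to about 3 reads in a library, so these rows were not detected, which does not show absence. Reads with more than 1 alignment were not counted, and their part in these counts of 0 was not tested. The row krt5.6.S stands in RefSeq as krt62.S, with xlk, the larval skin keratin, among its older names.

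**Figure D2:**
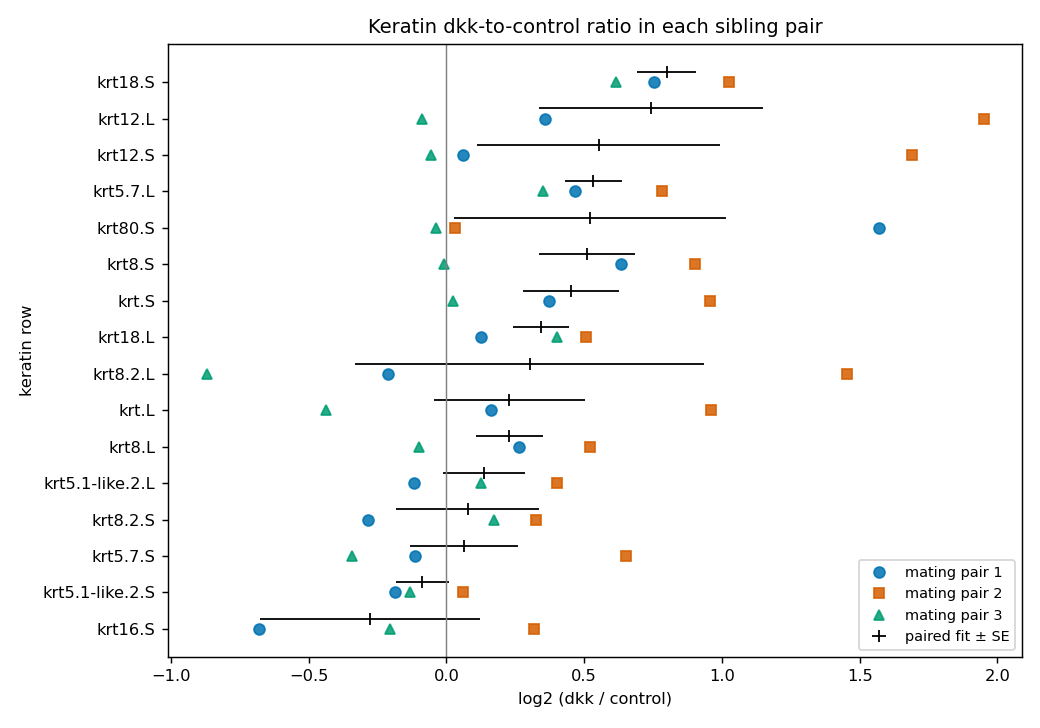
Log2 ratio of dkk to control in each sibling pair (coloured symbols, prior count of 2) and the paired edgeR estimate with its standard error (black), for the 16 keratin rows tested. In pair 2 all 16 lie above 0; in pair 3 only 6 do.

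Across the 16 tested keratins, 1 rose in dkk embryos, 0 fell and 15 did not pass an adjusted p of 0.05 (edgeR, BH), while over all 21643 genes tested 0.106% passed as higher and 0.467% as lower in dkk embryos. The 1 call was also 1 of 14 without the krt5.1-like rows. At an unadjusted p under 0.05, 5 of 16 were higher and 0 lower, where 3.63% of all genes were higher and 4.19% lower. At an adjusted p of 0.05 DESeq2 and limma-voom also called 0 keratins lower. The keratins' median log2 fold change was 0.32, and 0.40 without the krt5.1-like rows, against -0.0013 over all genes. None of the 97 genes in the authors' deposited table of their own comparison is a keratin. Its threshold and design were not compared with those used here. Of the 16 tested keratins 0 had their 3 dkk embryos all above or all below the 3 controls, which 2.66% and 2.89% of all genes did.

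The excess was widest in pair 2. There 16 of 16 keratins were higher in the dkk embryo, against 48.6% of all genes, with a median log2 ratio of 0.72. In pair 1 it was 10 of 16, against 49.9% of all genes, with a median of 0.14, and in pair 3 it was 6 of 16, against 51.4%, with a median of -0.05. Without the krt5.1-like rows 10, 14 and 5 of 14 were higher in pairs 1 to 3, with medians of 0.21, 0.84 and -0.05. In 15 of 16 rows pair 2 had the highest ratio of the 3 pairs, which held for 33.5% of all genes, and the exception was krt80.S; without the krt5.1-like rows it was 13 of 14. The dkk embryo of pair 2 was the highest of the 6 embryos in 13 of 16 rows and in 12 of 14 without the krt5.1-like rows, against 19.7% of all genes. Only krt18.S, krt18.L, krt5.7.L and krt.S were higher in 3 of 3 pairs, so 4 of 16, or 4 of 14 without the krt5.1-like rows, against 13.4% of all genes. Without pair 2 there was 0 of 17 keratins called, and without pair 3 there were 3 of 17, krt18.S, krt5.7.L and krt8.S, where 0.0269% and 1.53% of all genes passed as higher. With 1 embryo for each treatment and mating, a response of that mating and a difference between single embryos cannot be told apart.

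More keratins passed a test between matings than one between treatments, an order that held over all genes too. Between treatments 1 of 16 keratins passed, against 0.573% of all genes. In the same fit the mating term passed an adjusted p of 0.05 in 7 of 16 keratins (7 of 14 without the krt5.1-like rows), against 22.2% of all genes (edgeR F test of the mating term). These were krt.S, krt18.L, krt18.S, krt5.7.L, krt8.L, krt8.S and krt8.2.S. Mating 3 was the lowest in 6 of the 7 keratins called, against 2213 of the 4808 called among all genes. Of the genes tested, 6 of 16 keratins were called with mating 3 lowest, against 10.2% of all genes. krt18.L averaged 613, 706 and 379 CPM over the embryos of matings 1 to 3 (adjusted p = 0.00692), and krt5.7.L averaged 1285, 1773 and 898 CPM (BH-adjusted p = 0.00679 by edgeR). Both were thus nearly 1 log2 unit apart between their extreme matings, at fitted differences of 0.89 and 0.94. krt8.2.S ran the other way, at 2.27, 1.79 and 9.75 CPM over matings 1 to 3, a fitted log2 difference of 2.44 between matings 2 and 3 (BH-adjusted p = 0.00372 by edgeR).

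The low level in mating 3 was present in dkk embryos and controls alike. In 9 of 16 rows (9 of 14 without the krt5.1-like rows) mating 3 was lowest among the dkk embryos and also among the controls, against 24.3% of all genes. Mating 2 was the highest among dkk embryos in 13 of 16 rows (31.2% of all genes) and among controls in 7 of 16 (29.8%), or in 12 and 7 of 14 without the krt5.1-like rows. Among controls alone, krt12.S spread widest of the 10 rows with most reads, at 3.12-fold. Among dkk embryos krt12.S spread 5.19-fold. The 7 calls depended on the matings kept. Without pair 3 there were 4 calls among 17 keratins (15.2% of all genes), of which krt18.S, krt5.7.L and krt8.S were shared with the 7. Without pair 2 there were 8 of 17 (20.8% of all genes), of which 5 were shared, and krt18.S (adjusted p = 0.0528) and krt8.S (0.490) were lost. Over 10 alternatives the adjusted p of krt18.S ran from 2.70e-05 to 0.0528 and that of krt8.S from 9.37e-05 to 0.490 (edgeR, DESeq2 and limma-voom).

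**Figure D3:**
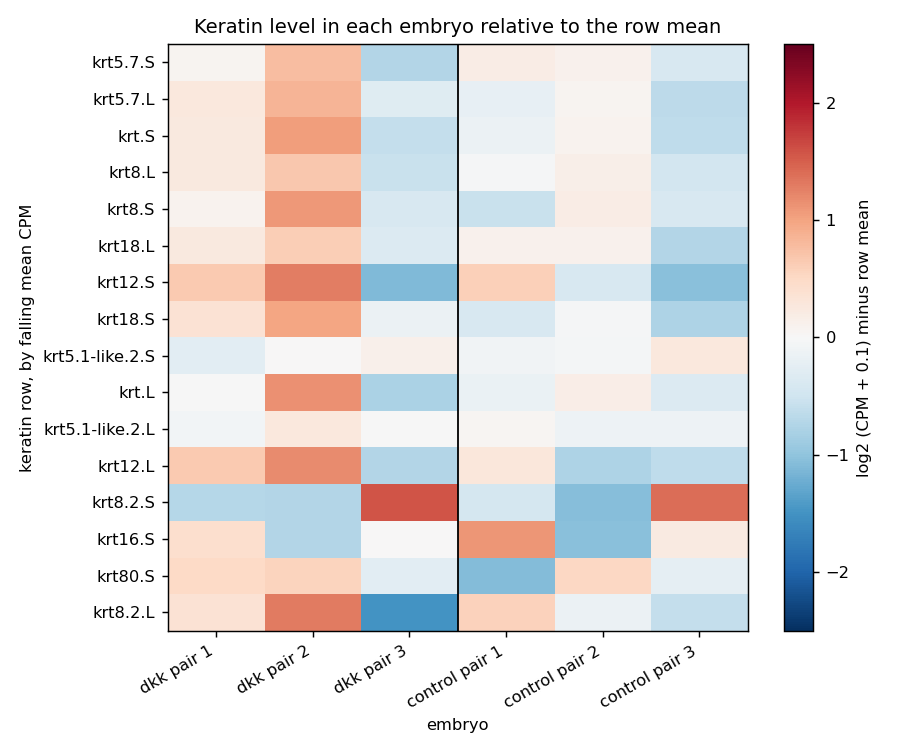
Heat map of the 16 tested keratin rows (ordered by falling mean CPM) in the 3 dkk embryos (left of the line) and the 3 controls (right), as log2 of CPM plus a pseudocount of 0.1, minus the row mean. The dkk embryo of pair 2 is the highest of 6 in 13 rows. krt8.2.S is far higher in both embryos of mating 3 than in the other 4, and krt5.1-like.2.S is higher there by a small margin.

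The balance of the L and S copies was compared within each keratin. The S copy's share of the L plus S reads of krt18 was 33.7%, 37.8% and 34.6% in dkk embryos 1 to 3, against 24.7%, 29.7% and 31.3% in controls 1 to 3. All dkk embryos were above all controls. In krt5.7 the S share was 51.3%, 53.1% and 47.0% in dkk embryos 1 to 3 and 61.2%, 55.3% and 59.0% in controls 1 to 3, with all dkk embryos below all controls. In krt8 the S share was higher in the dkk embryo of each pair, at 35.4%, 45.0% and 40.4% in dkk embryos 1 to 3 against 29.7%, 38.5% and 38.9% in controls 1 to 3, though the groups overlapped. In krt5.1-like.2 it was lower in the dkk embryo of each pair, at 82.5%, 82.0% and 85.7% in dkk embryos 1 to 3 against 83.2%, 85.3% and 87.7% in controls 1 to 3, and the groups again overlapped. Each of these 4 had an exact paired permutation p of 0.25 (2-sided), the smallest that 3 pairs allow. Of 4023 homeolog pairs with at least 100 reads in every embryo, 3.18% had all dkk shares above all controls and 3.03% had all below; among the 6 keratin pairs it was 1 each way. The S share was higher in the dkk embryo of 3 of 3 pairs in 14.6% of the 4023 and lower in 13.6%, and among the 6 keratin pairs it was 2 each way. The S share of krt was 83.8% to 86.7% in dkk embryos and 82.0% to 84.9% in controls, and that of krt12 96.1% to 97.1% in dkk embryos and 96.0% to 97.6% in controls. Wilson 95% half-widths of a single share were at most 1.10 percentage points, covering counting error only. Reads with more than 1 alignment, 15.9% to 17.6% of a library, were not counted for any gene, so a share rests on reads that separate the copies, and copies of unlike length or likeness are not comparable in level.

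**Figure D4:**
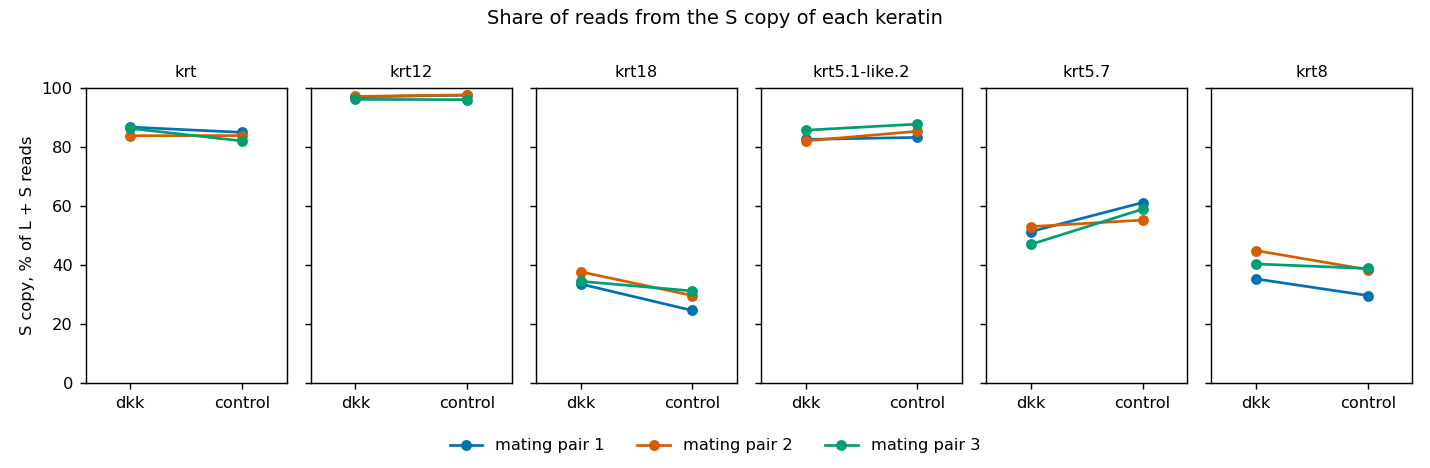
Percent of a keratin's L plus S reads that fell on the S copy, in each dkk embryo (left) and its control (right), joined by mating pair. The dkk values lie above all controls for krt18 and below all controls for krt5.7.

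Genes that work with keratins were read for comparison. Over all genes tested 0.573% passed in either direction, the share to set beside the list counts that follow. Of desmosomal and plakin genes, which link keratin filaments to the cell surface, 0 of 17 rows tested passed in either direction (edgeR, BH). Their median log2 ratio was 0.08, 0.41 and -0.09 in pairs 1 to 3, also highest in pair 2. Smallest in p was ppl.L, which encodes the plakin periplakin, at 3.13 ± 3.40 CPM in dkk embryos and 0.573 ± 0.278 CPM in controls (SD, n = 3 each). Next came the desmocollin copy dsc3.S, at 10.3 ± 0.764 CPM in dkk embryos and 6.08 ± 2.00 CPM in controls, and the plakophilin copy pkp3.L, at 133 ± 38.8 CPM in dkk embryos and 161 ± 15.7 CPM in controls. In that order their BH-adjusted p was 0.230, 0.311 and 0.755 by edgeR. Other intermediate filament genes gave 0 calls among 6 rows. vim.L, the vimentin of mesenchymal cells, stood at 74.3 ± 15.7 CPM in dkk embryos and 111 ± 38.0 CPM in controls (SD, n = 3 each), lower in 3 of 3 pairs (BH-adjusted p = 0.333 by edgeR). The log2 fold changes of vim.2.L and of the nestin copy nes.L were -1.19 and 0.40.

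Epidermal regulators lay on both sides of 0 in pair 2. Over all genes 0.467% passed as lower and 0.106% as higher in dkk embryos. Among epidermal transcription factors, 1 of 36 rows fell, 0 rose and 35 did not pass (edgeR, BH). The 1 was tp63.S, the p63 factor of basal epidermis, at 3.65 ± 1.64 CPM in dkk embryos and 24.4 ± 10.7 CPM in controls (SD, n = 3 each; log2 fold change -2.71 ± 0.24, SE; adjusted p = 0.00362 by edgeR). The call held without each pair, and was lost without the mating pair as a block (0.252). grhl3.L, which encodes a regulator of epidermal differentiation, was at a log2 fold change of -0.67 ± 0.11 (SE), lower in the dkk embryo of 3 of 3 pairs, and missed the threshold at an adjusted p of 0.0506 (edgeR, BH). Rows higher in the dkk embryo of each pair, named after their values were seen, included klf5.S, klf5.L and tfap2b.L. Their log2 fold changes of 0.56, 0.62 and 1.98 did not pass (adjusted p = 0.135, 0.219 and 0.173, edgeR, BH). tfap2b.L had at most 26 reads in an embryo. The median log2 ratio of the list was -0.19, 0.06 and -0.46 in pairs 1 to 3. In these pairs 16, 19 and 12 of 36 rows were higher in the dkk embryo, against 49.9%, 48.6% and 51.4% of all genes. The largest ratio was in pair 2 in 24 of 36 rows, against 33.5% of all genes. Among rows named after their values were seen, all 4 of foxi4, a forkhead factor gene, had log2 ratios of 0.68 to 1.87 in pair 2 and -0.64 to -0.45 in pair 3. The 6 rows of the homeobox genes dlx3, dlx5 and dlx6 had 0.53 to 1.28 in pair 2 and -0.77 to -0.08 in pair 3. Other rows of the list were mixed. Also above 0 in pair 2 and below 0 in pair 3 were tfap2b.S (0.69 and -0.58) and grhl2.L (0.46 and -0.75). The same held for grhl3.1 (0.08 and -0.48) and dlx2.S (0.05 and -1.56). The msx1 and msx2 rows were below 0 in both, at -1.41 to -1.26 in pair 2 and -4.60 to -3.15 in pair 3. In pair 2 foxi1.S had -0.34, foxi2.L -0.91, foxi1.L 0.11 and dlx2.L 2.11. The list summed to 1726, 2594 and 1219 CPM in dkk embryos 1 to 3 and to 2319, 2337 and 1895 CPM in controls 1 to 3. Of 24 surface epithelium rows 0 passed, and their medians were -0.13, -0.09 and -0.11 in pairs 1 to 3. In these pairs 6, 10 and 9 of the list's 24 rows were higher in the dkk embryo, beside the same shares of all genes. The tight junction genes cldn4.L, ocln.S and ocln.L had its smallest p-values, with log2 fold changes of -0.43, -0.35 and -0.38. Summed surface epithelium reads in pair 2 were 6065 CPM in the dkk embryo and 6390 CPM in the control, while summed keratin reads there were 12650 CPM in the dkk embryo and 7429 CPM in the control. The part of ectodermal cell number or developmental timing in the keratin values of that pair was not tested.

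**Figure D5:**
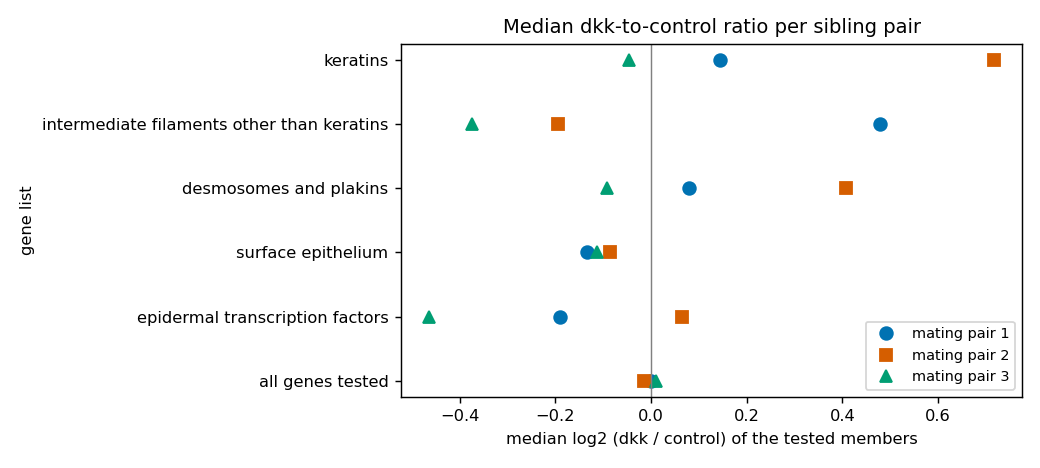
Median log2 ratio of dkk to control over the tested rows of each gene list, in each sibling pair. Keratins reach 0.72 in pair 2, desmosomal and plakin genes 0.41 and surface epithelium genes -0.09, beside a median of all genes near 0.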

How the data were processed

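Raw, unnormalized HTSeq counts, 1 table per embryo, are what the authors deposited. The submitters' processing notes name TopHat2, SAMtools and HTSeq; for their versions, strand use, build and annotation nothing is stated in the sources used here. Without a stated strand setting, reads of overlapping genes cannot be told apart. The 5 HTSeq rows that name no gene, 25.6% to 28.2% of counted reads, entered neither library sizes nor tests. The authors' deposited table of 97 genes, whose header names a baseMean (a normalized signal), log2 fold changes, a test score and p-values, was searched for keratins only.

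Counts were fitted over all genes with edgeR 4.0.16 in R 4.3.3: TMM scaling, filterByExpr by treatment (minimum count 10, total 15; on rows of this depth about 10 reads in 3 embryos), robust quasi-likelihood F tests, mating pair as a block, and Benjamini-Hochberg adjustment over the 21643 genes left, threshold 0.05. The mating term was tested in the same fit with treatment as covariate. Standard errors are those implied by the F statistic. A prior count of 2 was used for ratios within a pair. The submitters' design text gives the mating pairs. Deviations from group means correlated at 0.674, 0.552 and 0.622 within pairs 1 to 3. Nothing but the mating pair separates replicates. The p-values of the main fit rest on the spread between these embryos that treatment and mating leave. CPM are not corrected for length, so levels are compared between embryos and not between genes. The fit was tested on simulated data that held no mating differences, so recovery of such differences was not tested.

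Alternatives were DESeq2 size factors and upper-quartile scaling, no filter, at least 1 CPM in 3 libraries, DESeq2 1.42.0, limma-voom (limma 3.58.1), L and S copies summed, no block, and each mating pair left out. Values in every embryo are given for keratins past a test, their homeologs and the 10 with the highest mean CPM. In each related list the 3 rows with the smallest p are named, except that 1 is not reported here. The members and lists were chosen with earlier results of these data known. Row names were matched to RefSeq symbols and older names with the same L or S suffix.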

Additional observations from a re-analysis of the deposited data

How the results depend on the processing

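The count of keratins higher in dkk embryos, 1 of 16, became 2 of 27 with no filter and 2 of 27 with DESeq2. It was 0 of 10 with L and S copies summed and 0 of 16 with no replicate block. With mating pairs 1 to 3 left out in turn it was 1 of 15, 0 of 17 and 3 of 17. No alternative called a keratin lower in dkk embryos. Keratins called between matings, 7 of 16 against 4808 of 21643 genes, were 6 of 27 with no filter, against 6976 of 35909 genes. They were 9 of 27 with DESeq2 (5495 of 35909) and 5 of 10 with copies summed (3960 of 17278). Under the remaining settings with a mating term and all pairs kept, 7 were called. With pairs 1 to 3 left out in turn they were 7 of 15, 8 of 17 and 4 of 17. Over all genes these fits called 3237 of 22119, 4642 of 22269 and 3304 of 21750. Over all genes the dkk calls, 124 (23 higher, 101 lower), were 343 (112 and 231) with no filter, 391 (124 and 267) with DESeq2 and 14 (1 and 13) with no replicate block, a fit in which the mating differences enter the spread; with copies summed, a fit of fewer genes, 66 were lower. Leaving out a mating pair gave 58 to 659 calls, 6 to 332 higher and 52 to 327 lower, and the cause was not tested. Of 130 dkk values of 12 named keratins under the alternatives, 118 kept their direction and side of the threshold. The 5 that changed sign did so without pair 2: with a pair left out in turn, krt5.7.S ran from -0.23 to 0.28, krt12.S from -0.0024 to 0.88, krt.L from -0.14 to 0.57, krt8.2.S from -0.037 to 0.24 and krt8.2.L, which without pair 1 was under the filter, from -0.62 to 0.72. Of 118 mating values of the same rows, 104 stayed on their side of the threshold. The median log2 fold change of all genes was at most 0.023 under the other scalings. Rows with under about 10 reads in 3 embryos could not be tested at this depth.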
